A study of Mus musculus with 12 samples.

Results

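The C/EBP transcription factors of the mouse are encoded by Cebpa, Cebpb, Cebpd, Cebpe and Cebpg. These 5 genes were taken by name, as the members of the family, from the 54532 genes of the table. All 5 passed the filter on low values (at least 0.1 FPKM, a read count scaled to gene length and library total, in at least 3 libraries), as did 24102 genes in total. Cebpe passed it in 6 of 12 libraries, and the other members in all 12.

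RNA of whole colon was sequenced from 4 groups of C57BL/6N mice with 3 libraries in each. Tmem173fl/fl mice carry floxed alleles of Tmem173, which encodes STING, a sensor in the pathway that detects DNA in the cytosol. Tmem173iΔmye mice carry the same floxed alleles together with Lyz2-Creert2, a Cre recombinase that tamoxifen switches on in cells that use the Lyz2 promoter, mainly macrophages, monocytes and neutrophils. Both genotypes, with or without colitis, received 5 tamoxifen injections. Colitis was induced with dextran sulfate sodium (DSS) in the drinking water for 7 days in mice of 6 to 8 weeks, and the other mice of each genotype drank water. Nothing in the labels states that a library is a pool, and p-values measure the spread between libraries. The libraries of Tmem173iΔmye mice given DSS carry the numbers 1, 2 and 5.

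C/EBP proteins bind DNA as dimers through a basic region and a leucine zipper at the C-terminal end, and they pair with each other and with members of the ATF family. Cebpb and Cebpd are known as genes of the acute-phase response, switched on by IL-6 through STAT3 and by IL-1 and TNF, and their proteins drive transcription of acute-phase proteins and cytokines in macrophages, fibroblasts and epithelium. Cebpa is needed for granulocyte formation and for metabolic genes of liver and fat, Cebpe for the late steps of neutrophil maturation, and Cebpg encodes a short protein that lacks an activation domain and often pairs with ATF4. The Cebpb mRNA is translated into an activating long form and an inhibitory short form, which gene counts do not separate.

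The deposited table held counts of reads per gene and FPKM. Total counts ran from 13823237 to 18718915 per library. Before any member is described, the targeted gene was examined: Tmem173 averaged 20.6 CPM (counts scaled to the library total after TMM normalisation) in untreated Tmem173fl/fl mice, 17.7 in untreated Tmem173iΔmye mice, 41.4 in Tmem173fl/fl + DSS and 34.2 in Tmem173iΔmye + DSS. The genotype difference under DSS (log2 -0.28 ± 0.26 SE, edgeR adjusted p = 0.602) was within the spread, and a loss confined to myeloid cells was not detectable in these libraries of whole colon. The authors reported that the knockout lowered Tmem173 mRNA in inflamed colon in a separate measurement. Library 5 of Tmem173iΔmye + DSS stood apart on the second principal component (-114, the others from -26.5 to 31.6), and it lay on the side of the untreated libraries on the first. In library 3 of each untreated group and in library 5 of Tmem173iΔmye + DSS, Xist was high and the Y-linked genes were at 0. Results of the members are therefore also given without these 3 libraries where they change, and those of the gene lists in part.

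Cebpb is an intronless gene on chromosome 2 (GRCm38, chr2:167688915-167690418, plus strand), Cebpd lies on chromosome 16 (chr16:15887286-15891031, plus strand) and Cebpe on chromosome 14 (chr14:54710360-54712174, minus strand). Cebpa (chr7:35119293-35121928, plus strand) and Cebpg (chr7:35046422-35056573, minus strand) are neighbours on chromosome 7, 62719 bases apart and transcribed away from each other. The bases just before the transcription start are shown for the 3 members in the RefSeq promoter table (GRCm38.p6), because with DSS in Tmem173fl/fl mice Cebpb rose, Cebpa was not called and Cebpg was lower. Each sequence runs 5′ to 3′ on the strand of the gene over the 250 bases before the start, and capitals mark motif matches.
Cebpb, chr2:167688665-167688914, plus strand: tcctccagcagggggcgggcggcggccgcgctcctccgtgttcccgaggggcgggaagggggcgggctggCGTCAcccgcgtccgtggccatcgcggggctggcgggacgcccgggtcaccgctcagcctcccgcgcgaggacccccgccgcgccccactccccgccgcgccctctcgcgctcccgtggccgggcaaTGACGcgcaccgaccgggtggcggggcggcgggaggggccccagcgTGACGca
Cebpa, chr7:35119043-35119292, plus strand: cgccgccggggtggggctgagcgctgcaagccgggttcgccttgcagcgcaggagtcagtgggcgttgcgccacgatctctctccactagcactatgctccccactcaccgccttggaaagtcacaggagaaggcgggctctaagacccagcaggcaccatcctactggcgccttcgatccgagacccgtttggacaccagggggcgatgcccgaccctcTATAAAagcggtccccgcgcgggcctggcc
Cebpg, chr7:35056567-35056816, minus strand: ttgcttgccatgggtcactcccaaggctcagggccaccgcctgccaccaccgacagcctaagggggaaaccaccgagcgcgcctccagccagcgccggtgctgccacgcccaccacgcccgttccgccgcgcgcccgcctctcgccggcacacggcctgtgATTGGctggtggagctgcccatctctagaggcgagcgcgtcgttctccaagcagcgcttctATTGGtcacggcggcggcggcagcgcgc

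Both strands of these 3 windows were searched for 6 motifs: the C/EBP site (TTGCNNAA), the cAMP response element half-site (TGACG), the STAT site (TTCNNNGAA), the NF-kB site, the TATA box (TATAAA) and the CCAAT box (CCAAT). In the Cebpb window the TGACG half-site occurred at -53 and -7 and, on the reverse strand, at -180, counted backwards from the start. Of 32851 promoter windows of the same length, 17.8% held this half-site. The Cebpa window held a TATA box at -30, which 12.4% of windows held, and the Cebpg window held the CCAAT box on the reverse strand at -89 and -28, which 33.8% of windows held. No match overlapped another. The letters of the C/EBP (9.56% of windows), STAT (7.02%) and NF-kB (3.90%) sites did not occur in these 3 windows. The 3 windows were rich in G and C, at 81.6% for Cebpb, 70.8% for Cebpg and 66.4% for Cebpa, against a median of 52.4% over all windows.

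In the untreated colon, Cebpg and Cebpa were the most abundant members, and Cebpb and Cebpd were lower. The levels below are FPKM, so that genes of different length can be set side by side, and the 3 values of a group follow the library numbers. In untreated Tmem173fl/fl mice, Cebpg was at 20.8, 20.4 and 20.7. Cebpa was at 19.9, 12.2 and 14.1 in the same libraries. Cebpd was at 11.5, 7.21 and 5.70, and Cebpb at 10.4, 6.36 and 5.47. The ranges of Cebpd and Cebpb overlapped, whereas Cebpg stood above Cebpa and Cebpa above Cebpd without overlap. In untreated Tmem173iΔmye mice Cebpg was at 22.6, 23.5 and 19.7 and Cebpa at 16.3, 13.01 and 21.05. Cebpb was at 8.47, 8.40 and 12.5 and Cebpd at 7.14, 5.73 and 9.32. In these mice Cebpg and Cebpa overlapped, as did Cebpb and Cebpd. Cebpe was near 0: its counts were 2, 0 and 0 in untreated Tmem173fl/fl mice and 0, 1 and 0 in untreated Tmem173iΔmye mice.

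**Figure D1:**
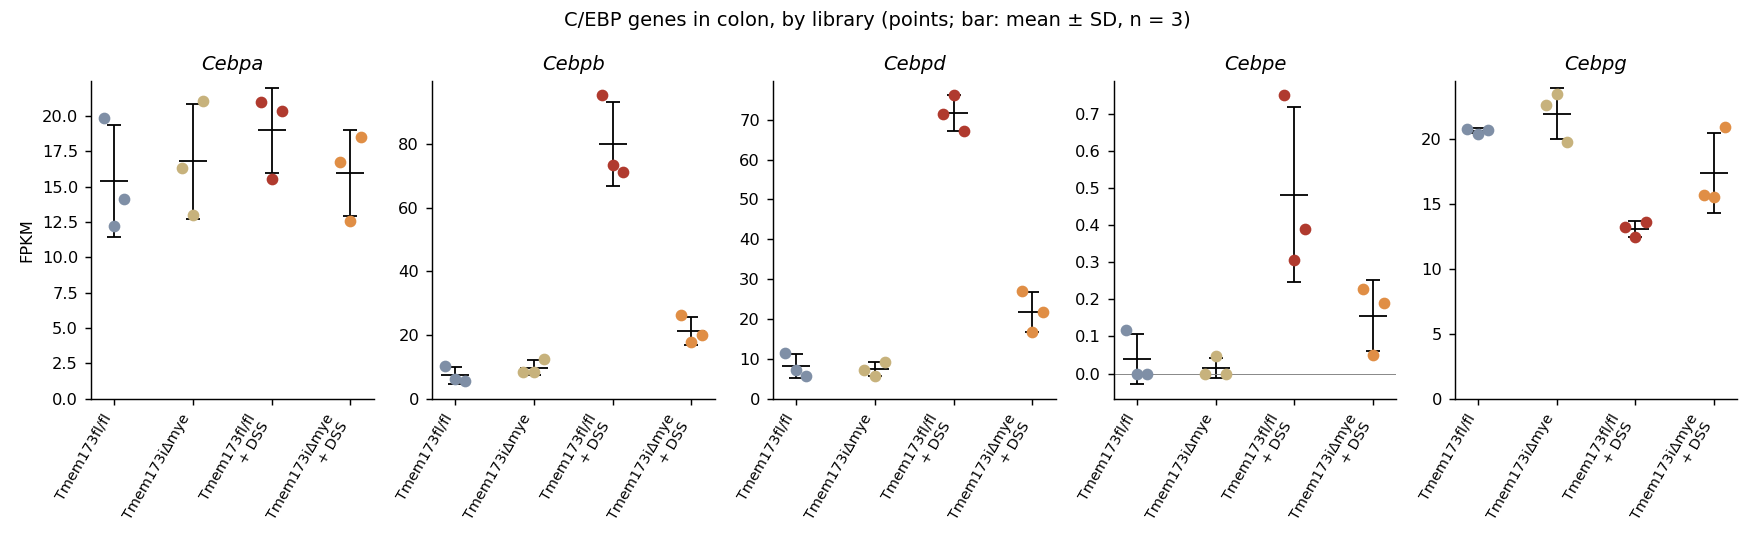
FPKM of each C/EBP gene (vertical axis, one panel per gene with its own scale) in the 4 groups, with each library as a point and the bar giving mean ± SD, n = 3. Cebpb and Cebpd reached means of 80.0 and 71.6 in Tmem173fl/fl + DSS and 21.3 and 21.8 in Tmem173iΔmye + DSS, Cebpg was lower with DSS in Tmem173fl/fl mice and overlapped with its untreated group in Tmem173iΔmye mice, and Cebpa overlapped between all groups.

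The first comparison asked what colitis did to the family in Tmem173fl/fl mice. Cebpb rose 10.4-fold in mean CPM, Cebpd rose 8.47-fold, and Cebpe went from near 0 to a low level. Cebpg was lower in each colitic library, and Cebpa overlapped between the groups. Of the 5 members, 3 were called higher (an edgeR adjusted p below 0.05 with a change of 1 or more on the log2 scale) and none lower, where 14.9% of all genes tested were called higher and 7.61% lower. The third of these, Cebpe, passed the filter in 6 libraries, 5 of them colitic, so that its call is no support for a rise of the family. Groups did not overlap for 4 of 5 members, against 49.3% of all genes tested. Cebpe is among these 4, and for the same reason its separation is no support for a change of the family.

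Cebpb was at 95.3, 73.5 and 71.3 FPKM in the Tmem173fl/fl + DSS libraries. Every colitic library stood far above every untreated one, the highest of which was at 10.4 FPKM. The log2 fold change was 3.45 ± 0.25 (SE, adjusted p = 6.9e-06). Cebpd was at 71.4, 76.2 and 67.2 FPKM with DSS, with a log2 fold change of 3.15 ± 0.25 (adjusted p = 1.2e-05). The colitic libraries differed little among themselves in Cebpd (71.6 ± 4.48 FPKM, SD), and again no library overlapped with the untreated group. Both calls held in each alternative fit that was run.

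Cebpe was counted 17, 8 and 7 times in the colitic Tmem173fl/fl libraries. Summed over libraries and scaled to library size, 32 reads against 2 give a ratio of 12.95, with a 95% exact interval from 3.30 to 112 that covers counting error only. The edgeR call (adjusted p = 0.022) rested on these few reads. It was lost without library 1 of the colitic group (adjusted p = 0.0993) and without library 2 (0.0674) or library 3 (0.0740) of the untreated group. With limma at a pseudocount of 1 the log2 change was 0.50, under the fold required. Even at its highest, 0.750 FPKM, Cebpe was a small part of the family.

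Cebpg moved the other way. Its level was 13.2, 12.4 and 13.6 FPKM in the colitic Tmem173fl/fl libraries, below all 3 untreated libraries. The log2 fold change was -0.64 ± 0.12 (adjusted p = 0.00204), so the difference exceeded the spread between libraries but was smaller than the fold required for a call. Cebpa was at 20.99, 15.6 and 20.4 FPKM, a log2 fold change of 0.32 ± 0.20 (adjusted p = 0.249). The untreated and colitic ranges of Cebpa overlapped.

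**Figure D2:**
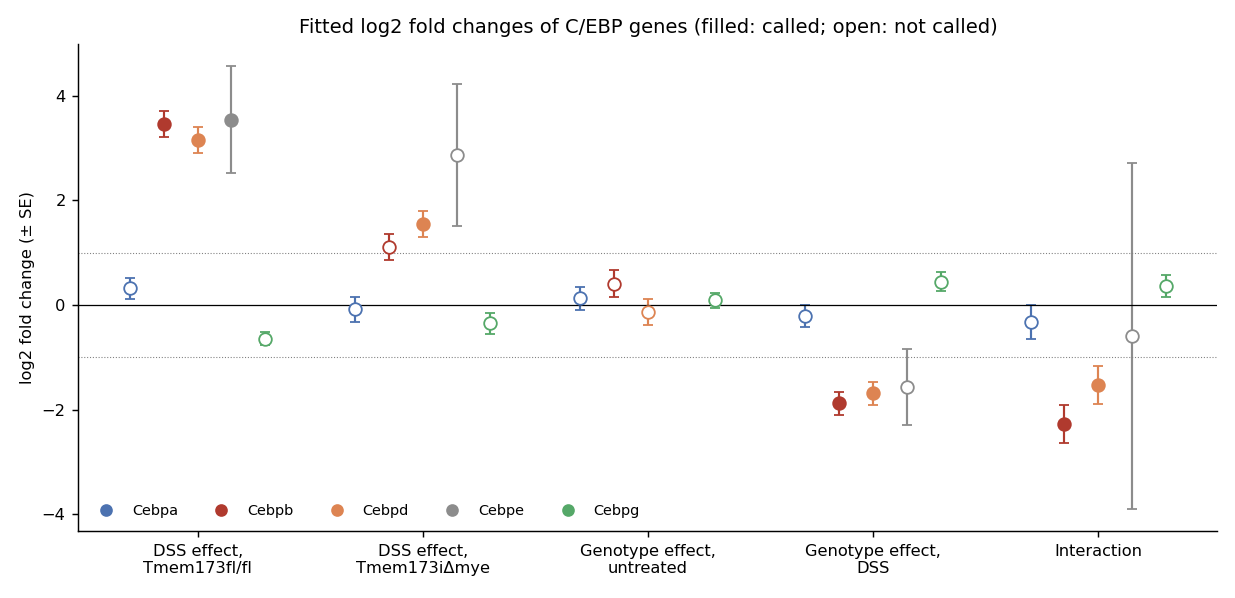
Log2 fold change (vertical axis, ± SE from edgeR) of the 5 members in the 4 pairwise comparisons and the interaction, with filled points for called members and dotted lines at log2 fold changes of 1 and -1. Cebpb and Cebpd stood at 3.45 and 3.15 for DSS in Tmem173fl/fl mice and at -1.88 and -1.68 for genotype under DSS, and the bars of Cebpe were the widest. Cebpe is not drawn for the untreated genotypes, where it had 1 and 2 reads.

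The second comparison asked the same in Tmem173iΔmye mice. Cebpd rose 2.93-fold in mean CPM, from 28.3 to 82.8, and was the only member called. Cebpb was 2.16-fold higher in mean CPM and fell just short of the threshold. In this comparison 1.48% of all genes tested were called higher and 0.597% lower, so far fewer genes were called than in Tmem173fl/fl mice. Groups did not overlap for Cebpb, Cebpd and Cebpe, 3 of 5 members, against 21.5% of all genes. For Cebpe the nearest libraries had 1 read each and were parted by library scaling alone.

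Cebpd was at 26.97, 16.9 and 21.7 FPKM in the Tmem173iΔmye + DSS libraries 1, 2 and 5. Each of them lay above the highest untreated library (9.32), and the log2 fold change was 1.55 ± 0.25 (adjusted p = 0.0137). The call was lost without library 1 (adjusted p = 0.119), 2 (0.110) or 3 (0.0636) of the untreated group. Cebpb was at 26.2, 17.9 and 19.9 FPKM in the same libraries, also above every untreated one, with a log2 fold change of 1.10 ± 0.25 (adjusted p = 0.0525). Without library 5, the one that stood apart, Cebpb was called (log2 1.18, adjusted p = 0.0203), and Cebpd stayed called (1.58, adjusted p = 0.00391). With the libraries of the Xist pattern left out, both were called as well, Cebpb at 1.39 (adjusted p = 0.0415) and Cebpd at 1.78 (0.0190).

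Cebpg was at 15.7, 15.5 and 20.9 FPKM in the Tmem173iΔmye + DSS libraries. Library 5 was at the untreated level, and libraries 1 and 2 lay below it. The log2 fold change of -0.35 ± 0.20 (adjusted p = 0.454) did not exceed the spread. Cebpa, at 16.8, 12.6 and 18.5 FPKM, overlapped with the untreated group (log2 -0.09 ± 0.24, adjusted p = 0.903). Cebpe had 4, 1 and 4 counts against 1 in all 3 untreated libraries, a ratio of 9.62 (95% exact interval 1.33 to 422), and was not called (adjusted p = 0.342).

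Without colitis the genotypes did not differ detectably in any member. No member was called in edgeR, and all 5 overlapped between the groups, where 7.35% of all genes tested did not. Of all genes, 0% were called, 720 had an unadjusted p under 0.05, and DESeq2 called 8. The log2 difference between Tmem173iΔmye and Tmem173fl/fl mice was 0.41 ± 0.26 for Cebpb, -0.14 ± 0.25 for Cebpd, 0.13 ± 0.21 for Cebpa and 0.09 ± 0.14 for Cebpg, each at an adjusted p of 1. Without the Xist-pattern libraries Cebpb was at 0.015 (adjusted p = 1) and Cebpd at -0.54 (adjusted p = 0.945). With 1 library left out Cebpb ran from 0.20 (without library 3 of Tmem173iΔmye mice) to 0.73 (without library 1 of Tmem173fl/fl mice), each at an adjusted p of 1. The lowest unadjusted p among the members was 0.139, for Cebpb, and DESeq2 called none of them. Cebpe had 1 count in one group and 2 in the other, at or under the floor of 3, and no fold is read from them.

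The ratio of Cebpb to Cebpd did separate the untreated genotypes. It was 0.904, 0.881 and 0.959 in Tmem173fl/fl mice and 1.19, 1.47 and 1.35 in Tmem173iΔmye mice (both in FPKM). All 3 libraries of one group thus lay above all 3 of the other, in a two-sided exact permutation test p = 0.1, the smallest that 3 against 3 libraries can give. Under DSS the ratio overlapped between the genotypes, at 1.33, 0.965 and 1.06 against 0.972, 1.06 and 0.917 (exact p = 0.4). This ratio was looked at after the values were seen, as 1 of 4 ratios in 4 comparisons.

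The central comparison set the genotypes side by side under DSS. Cebpb was 3.67-fold lower and Cebpd 3.20-fold lower in mean CPM in Tmem173iΔmye + DSS than in Tmem173fl/fl + DSS. Both were called lower, 2 of 5 members, where 1.99% of all genes tested were called lower and 0.822% higher. Groups did not overlap for 4 of 5 members, Cebpa being the exception, against 26.8% of all genes. Cebpe, among these 4, passed the filter mainly in colitic libraries and had 4, 1 and 4 reads against 17, 8 and 7. Its separation is no support for a change of the family.

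The mean of Cebpb was 119 ± 19.9 CPM (SD, n = 3) in Tmem173fl/fl + DSS and 32.5 ± 6.31 CPM in Tmem173iΔmye + DSS. The log2 difference was -1.88 ± 0.21 (SE, adjusted p = 0.00990). The mean of Cebpd was 265 ± 17.8 CPM against 82.8 ± 18.6 CPM, a log2 difference of -1.68 ± 0.22 (adjusted p = 0.0137). For both genes the highest library of Tmem173iΔmye + DSS stood well below the lowest of Tmem173fl/fl + DSS (26.2 against 71.3 FPKM for Cebpb, 26.97 against 67.2 for Cebpd). Without library 1 of Tmem173fl/fl + DSS the adjusted p rose to 0.0629 for Cebpb and 0.0694 for Cebpd, and without library 2 of Tmem173iΔmye + DSS to 0.0508 and 0.0522. The log2 differences in those fits stayed between -1.76 and -1.52. Without library 5 of Tmem173iΔmye + DSS both remained called (adjusted p = 0.0156 and 0.0210).

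The other members gave smaller or less certain differences. Cebpg was higher in each Tmem173iΔmye + DSS library than in any Tmem173fl/fl + DSS library, with a log2 difference of 0.44 ± 0.18 that was not called (adjusted p = 0.218). Without library 5 of Tmem173iΔmye + DSS it was 0.27 (adjusted p = 0.349). Cebpe had 9 reads against 32, a ratio of 0.328 (95% exact interval 0.138 to 0.703 for counting error), and was not called (adjusted p = 0.272). Cebpa overlapped (log2 -0.22 ± 0.21, adjusted p = 0.606).

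Whether DSS acted differently in the 2 genotypes was tested with the interaction over all 12 libraries. Cebpb had an interaction of -2.27 ± 0.36 on the log2 scale (adjusted p = 0.00712) and Cebpd of -1.53 ± 0.36 (adjusted p = 0.0390). Both were called, 2 of 5 members, where 1.61% of all genes tested were called lower and 0.934% higher. The gain of Cebpb over the untreated mean was 108 CPM in Tmem173fl/fl mice and 17.4 CPM in Tmem173iΔmye mice, so the second was 16.2% of the first. For Cebpd the gains were 234 and 54.6 CPM, a share of 23.3%. The interaction of Cebpb held in every fit, whereas that of Cebpd was lost without any one of 9 of the 12 libraries (adjusted p from 0.0501 to 0.101) and without the Xist-pattern libraries (-1.16, adjusted p = 0.183). The 3 libraries that could be left out with the call kept were library 1 of untreated Tmem173fl/fl mice, library 2 of untreated Tmem173iΔmye mice and library 1 of Tmem173iΔmye + DSS. The interactions of Cebpa (-0.33 ± 0.32), Cebpg (0.37 ± 0.21) and Cebpe (-0.60 ± 3.30) were not called, with adjusted p of 0.637, 0.389 and 0.962.

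The make-up of the family shifted with these changes. Summed over the 5 members, the level was 51.7 ± 9.59 FPKM (SD) in untreated Tmem173fl/fl mice, 55.9 ± 6.12 in untreated Tmem173iΔmye mice, 184 ± 15.4 in Tmem173fl/fl + DSS and 76.7 ± 12.1 in Tmem173iΔmye + DSS. In untreated Tmem173fl/fl mice Cebpg made up 40.8 ± 6.62% of the sum, Cebpa 29.6 ± 2.77%, Cebpd 15.5 ± 2.995% and Cebpb 14.1 ± 2.38%. With DSS in these mice the order turned over: Cebpb held 43.3 ± 3.45% and Cebpd 39.0 ± 3.69%, while Cebpa held 10.3 ± 1.53% and Cebpg 7.13 ± 0.669%.

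In Tmem173iΔmye + DSS the shares of the 4 main members lay close together on the deposited FPKM. Cebpd held 28.3 ± 2.68%, Cebpb 27.8 ± 3.06%, Cebpg 22.9 ± 4.04% and Cebpa 20.8 ± 1.77%, and neighbours in this order overlapped in FPKM. The Cebpb share was 47.3%, 41.3% and 41.2% in the Tmem173fl/fl + DSS libraries against 30.5%, 28.4% and 24.5% in Tmem173iΔmye + DSS, a difference of -15.5 percentage points without overlap (exact permutation p = 0.1, two-sided, the smallest possible). The rise of the share with DSS was 29.2 points in Tmem173fl/fl mice and 10.4 points in Tmem173iΔmye mice (exact p = 0.1 each). Without DSS the Cebpb share overlapped between genotypes, 14.1% against 17.4% (exact p = 0.3). Cebpe stayed under 0.372% of the sum in each library.

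**Figure D3:**
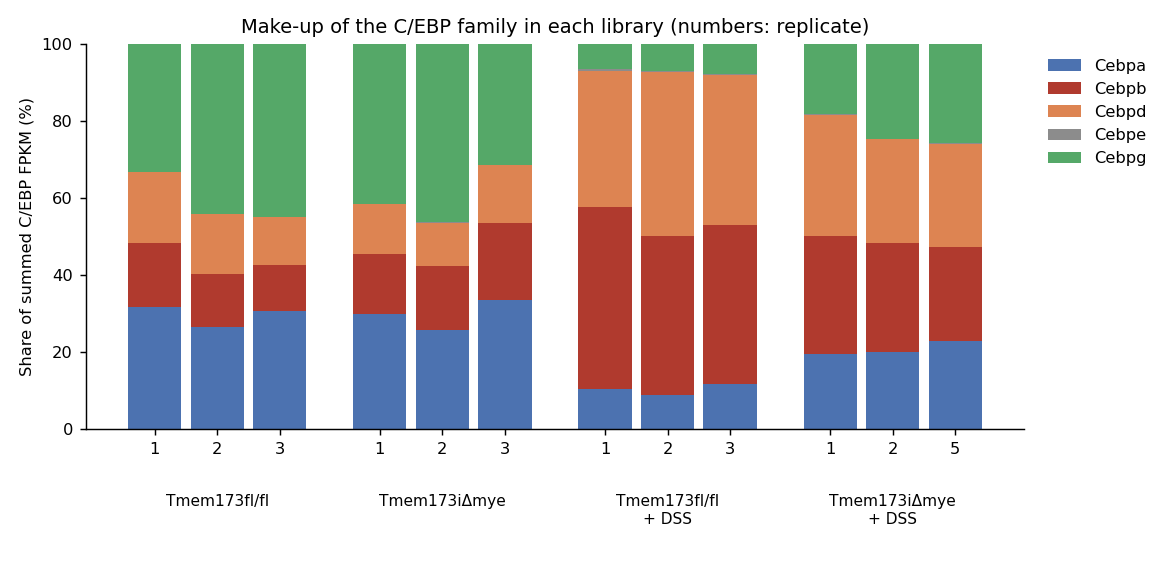
Share of each member in the summed C/EBP FPKM (vertical axis, percent) in each library, one bar per library with its replicate number below. Cebpg and Cebpa filled most of each untreated bar, Cebpb and Cebpd together most of each Tmem173fl/fl + DSS bar, and the Tmem173iΔmye + DSS bars lay between.

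The order of the members and their shares depend on the transcript length used. FPKM divides by a gene length of 5621 bases for Cebpg, while its coding transcripts in GENCODE M21 run from 914 to 4709 bases. With the shortest length Cebpg would average 80.4 in Tmem173fl/fl + DSS, level with Cebpb (80.0), and 107 in Tmem173iΔmye + DSS, above all other members. With the longest it would be at 15.6 and 20.8. Which transcript the colon makes cannot be read from gene counts, and the fold changes of a member do not depend on its length. For Cebpd the length used was 3746 bases, as in GENCODE M21, whereas the RefSeq gene spans 2260. With the RefSeq length Cebpd would run from 111 to 126 in Tmem173fl/fl + DSS and from 28.0 to 44.7 in Tmem173iΔmye + DSS, in both above every other member (Cebpb at most 95.3 and 26.2), with mean shares of 51.4% and 39.5%. It would reach 19.1 in untreated Tmem173fl/fl mice and 15.4 in untreated Tmem173iΔmye mice, and overlap Cebpa in both.

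Some reads of the members could belong to genes on the opposite strand, since the use of strand in counting was not given in the sources used here. The Cebpb gene overlaps Tmem189 over 908 bases on the other strand, and Tmem189 stayed within the spread with DSS in Tmem173fl/fl mice (log2 -0.19, adjusted p = 0.442). Cebpd overlaps Spidr over 1808 bases, and Spidr was higher with DSS (log2 0.87, adjusted p = 0.00287, not called). Tmem189 averaged 48.1, 48.4, 40.2 and 41.6 CPM in untreated Tmem173fl/fl, untreated Tmem173iΔmye, Tmem173fl/fl + DSS and Tmem173iΔmye + DSS, above Cebpb (11.4, 15.1, 119 and 32.5 CPM) in all but Tmem173fl/fl + DSS. Spidr averaged 14.9, 12.9, 25.97 and 15.5 CPM, below Cebpd (31.3, 28.3, 265 and 82.8 CPM) in each group. How many reads of the overlaps were given to either gene was not tested. The antisense gene Gm45091 at Cebpa reached at most 1.14 CPM in a library. The antisense gene Gm45095 at Cebpg reached at most 0.433 CPM, and Gm45094 and Gm44836, which overlap Cebpg on its own strand, at most 1.995 and 1.23 CPM.

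In the untreated groups Cebpa, Cebpb and Cebpd were highest in the same library, library 1 of Tmem173fl/fl mice and library 3 of Tmem173iΔmye mice. With DSS they were not: in Tmem173fl/fl + DSS Cebpa and Cebpb were highest in library 1 and Cebpd in library 2, where Cebpa was lowest, and in Tmem173iΔmye + DSS Cebpb and Cebpd were highest in library 1 and Cebpa in library 5. After the group mean was subtracted, Pearson's r of log2(CPM + 1) over the 12 libraries was 0.90 for Cebpb with Cebpd, 0.75 for Cebpa with Cebpb and 0.73 for Cebpa with Cebpd. Cebpg did not follow, with r from -0.25 to 0.16 against these 3. These values describe 12 libraries that share depth and tissue composition, and no test was made.

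Across all 12 libraries with the groups left in, Cebpb followed Cebpd with r = 0.98 and ran opposite to Cebpg (r = -0.91). The 3 genes most like Cebpb over all genes of at least 1 FPKM were Fkbp10 (0.99), a collagen chaperone, Klhl29 (0.99) and Igfbp7 (0.99), a secreted protein of stroma and vessels. Those most like Cebpd were Ccm2l (0.99), an endothelial gene, Col1a2 (0.99), a chain of type I collagen, and again Klhl29 (0.98). Those most like Cebpa were Rpp21 (0.89), Sf3b5 (0.89) and Arhgef10l (0.87), and those most like Cebpg were Mmaa (0.98), St3gal6 (0.98) and Impa1 (0.98). For Cebpe, with its few counts, the list was Fam131a (0.97), Egr2 (0.96) and Fam171a2 (0.96). This list depended on the scale: with log2(FPKM + 0.1) it was Glis2 (0.96), Ch25h (0.95) and Rgs16 (0.95). With group means subtracted, the closest were Sh3gl1 (0.97), Abhd17a (0.96) and Gdf15 (0.96) for Cebpb, and Cactin (0.96), Ccdc85b (0.95) and Gga1 (0.94) for Cebpd, so the genes named depend on whether the groups are left in. On that basis Slc45a3 (0.97), Pla2g4f (0.96) and Tango2 (0.94) were closest to Cebpa, Txnl4a (0.98), Nlk (0.97) and Rgs4 (0.96) to Cebpg, and Sprr2a3 (0.96), Fos (0.93) and Egr2 (0.91) to Cebpe. With log2(FPKM + 0.1) those closest to Cebpe were Sprr2a3 (0.95), Gm17210 (0.93) and Chrdl2 (0.91).

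The other genes of the pathway were taken from 5 lists: signals that induce C/EBP genes, dimer partners and regulators, acute-phase targets, granulocyte targets, and metabolic targets. Csf3 and Il6 belong to both the signals and the acute-phase list, and Csf3r to the signals and the granulocyte list. Of all genes tested, 14.9% were called higher and 7.61% lower with DSS in Tmem173fl/fl mice, and 1.48% and 0.597% in Tmem173iΔmye mice. Between genotypes under DSS the shares were 0.822% and 1.99%, and in the interaction 0.934% and 1.61%. The upstream signals came first. Of 28 cytokines, receptors and transducers, 17 rose and 1 fell with DSS in Tmem173fl/fl mice, and the median log2 fold change was 1.90, against 0.03 for all genes tested. Il6, the main inducer, went from 0.0896 to 24.02 CPM (log2 7.99, adjusted p = 1.8e-05), and Il11, a cytokine of the same family, from 0.231 to 93.0 CPM (log2 8.69, adjusted p = 4.7e-05). Csf3, the growth factor of neutrophils, had no count in any untreated library and 54.0 CPM with DSS, at least 829-fold higher against a floor of 3 counts over the group. The 1 that fell was Il17rc (log2 -1.49, adjusted p = 7.5e-05), a chain of the IL-17 receptor. Rela, a subunit of NF-kB, was 0.86 higher in log2 (adjusted p = 0.000865) and under the fold required.

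In Tmem173iΔmye mice 11 of the 28 inducers rose with DSS and 0 were called lower (median 1.15, all genes 0.02), with 20 at an unadjusted p under 0.05 in either direction and 0 called lower by DESeq2. Csf3 was at least 95.5-fold higher, Il11 rose by 5.28 and Il1a by 3.16 in log2 (adjusted p = 0.000769 and 0.0114). The count fell from 11 to 3 without any one untreated library and to 6 without library 1 of the colitic group. Between the genotypes under DSS, 5 of 28 were called lower in Tmem173iΔmye mice: Il11 (-3.27 ± 0.59, adjusted p = 0.0300), Csf3 (-3.24 ± 0.65, 0.0388), Il6 (-2.36 ± 0.46, 0.0346), Osm (-2.09) and Il1r1 (-1.28). The last 2 were named to complete the count. The list's median was -0.63, against 0.02 for all genes. With 1 library left out, the list's median stayed between -0.96 and -0.42 and 9 to 19 genes had an unadjusted p under 0.05, while the number called went from 0 to 7 (from 27 to 1593 over all genes). None of the 28 was called without library 1 or 3 of Tmem173fl/fl + DSS or library 2 of Tmem173iΔmye + DSS, 2 were without library 2 of Tmem173fl/fl + DSS, and 3 and 7 were without library 5 or 1 of Tmem173iΔmye + DSS. By limma none was called. In the interaction only Il1r1, a receptor of IL-1, was called (-1.39, adjusted p = 0.0173). It was lost without library 1 of untreated Tmem173fl/fl mice, and without library 1 of Tmem173iΔmye + DSS the list had 3 calls.

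Among 19 dimer partners and regulators, 8 rose and 2 fell with DSS in Tmem173fl/fl mice (median 0.51). Of all genes tested, 14.9% were called higher and 7.61% lower, so the 2 of 19 that fell are near the share over all genes. Without library 1 of the colitic group 4 fell and the median was 0.27, and 3 fell without library 3 of either group. Nfil3, a basic leucine zipper factor, rose by 2.60 (adjusted p = 2.7e-06), Batf3 by 2.02 and Spi1, which encodes the myeloid factor PU.1, by 1.97. Batf2 fell by 2.45 (adjusted p = 0.000309) and Atf3 by 1.95 (adjusted p = 0.000162). Both of the latter were higher in Tmem173iΔmye + DSS than in Tmem173fl/fl + DSS, Batf2 by 1.66 (adjusted p = 0.0268) and Atf3 by 1.63 (0.0456), and Atf5 (-1.12, 0.0317) and Nfil3 (-1.06, 0.0430) were lower. These 4 were all that was called of the 19 (median -0.32), and none was called without library 1 or 3 of Tmem173fl/fl + DSS or library 2 of Tmem173iΔmye + DSS. Without library 2 of Tmem173fl/fl + DSS or library 5 of Tmem173iΔmye + DSS 1 was called, higher, and without library 1 of Tmem173iΔmye + DSS 1 was higher and 4 were lower. In the interaction Batf2 (2.01, adjusted p = 0.0209) and Atf5 (-1.31, 0.0208) were called. The list had no call higher without library 1 or 2 of untreated Tmem173iΔmye mice or library 1 of Tmem173fl/fl + DSS, and none lower without library 2 or 3 of untreated Tmem173fl/fl mice or library 3 of untreated Tmem173iΔmye mice. It had 2 higher without library 2 and 6 lower without library 1 of Tmem173iΔmye + DSS, and without the Xist-pattern libraries none of the 19 was called. Nfil3 was the only one of the 19 that rose with DSS in Tmem173iΔmye mice (1.52, adjusted p = 0.0157), and that call was lost without any one untreated library. Atf4, the known partner of the Cebpg protein and the most abundant of the genes not called between genotypes under DSS, differed by -0.32 (adjusted p = 0.320).

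Of 27 acute-phase targets, 26 rose with DSS in Tmem173fl/fl mice and none was called lower (26 at an unadjusted p under 0.05, 0 called lower by DESeq2), with a median log2 fold change of 4.76. Saa3, a serum amyloid A made by macrophages, stroma and epithelium, went from 3.76 to 1267 CPM (log2 8.48, adjusted p = 4.4e-06), and Lcn2, which binds bacterial siderophores, from 2.31 to 767 CPM (log2 8.44, adjusted p = 7.0e-07). The 1 gene that was not called was Saa1 (log2 -0.30, adjusted p = 0.386), an acute-phase gene that colonocytes express without inflammation. In Tmem173iΔmye mice 15 of the 27 rose with DSS and 0 were called lower (median 2.11, 22 at an unadjusted p under 0.05, 0 lower by DESeq2). The neutrophil chemokine genes Cxcl5 and Cxcl2 were among them, with log2 rises of 5.59 and 5.28 (adjusted p = 0.000769 each). The count fell from 15 to 7 without library 1 and to 5 without library 2 or 3 of the untreated group. It was 17 without the Xist-pattern libraries.

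Under DSS, 14 of the 27 acute-phase targets were lower in Tmem173iΔmye mice and 1 was higher, with a median of -2.11. Saa3 was at 98.6 CPM against 1267 (log2 -3.70 ± 0.52, adjusted p = 0.0167) and Lcn2 at 61.4 CPM against 767 (-3.65 ± 0.66, adjusted p = 0.0293). The 1 that was higher was Nos2, the inducible nitric oxide synthase, at 254 CPM against 84.1 (log2 1.59 ± 0.34, adjusted p = 0.0457). C3, a complement gene and the most abundant of those not called, differed by -1.40 (adjusted p = 0.0509). With 1 library left out, the median stayed between -2.35 and -1.92 and 23 to 26 of the 27 had an unadjusted p under 0.05, while the number called lower changed. It was 0, 8 and 5 without library 1, 2 or 3 of Tmem173fl/fl + DSS, 1 without library 2 of Tmem173iΔmye + DSS, 12 without library 5 and 16 without library 1. It was 21 by DESeq2 and 2 by limma. Nos2 was the only one of the list called higher, and it was not called without any one of those 3 Tmem173fl/fl + DSS libraries or without library 1 or 2 of Tmem173iΔmye + DSS. In the interaction 8 were called lower and 0 higher (19 at an unadjusted p under 0.05; DESeq2 called 1 higher), led by Saa3 (-4.73, adjusted p = 0.0200), Hp, which encodes haptoglobin (-4.49, 0.0167), and Lcn2 (-4.09, 0.0134). The 8 became 4 without library 1 or 3 and 5 without library 2 of untreated Tmem173fl/fl mice, 13 without library 1 of Tmem173iΔmye + DSS and 5 without the Xist-pattern libraries.

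**Figure D4:**
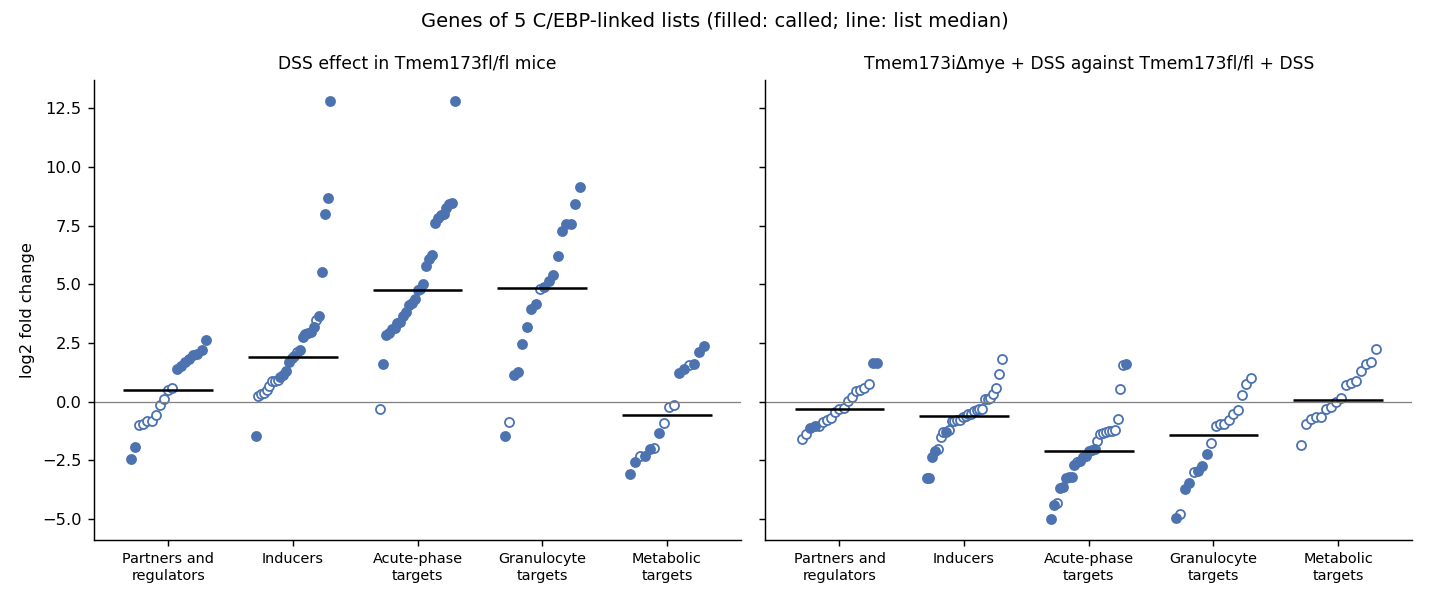
Log2 fold change (vertical axis) of each tested gene of the 5 lists for DSS in Tmem173fl/fl mice (left) and for Tmem173iΔmye + DSS against Tmem173fl/fl + DSS (right), filled where called, with a line at the list's median. The acute-phase and granulocyte lists had the highest medians on the left, 4.76 and 4.83, and the lowest on the right, -2.11 and -1.41, and the top point on the left, Csf3, had no untreated count, so that its fitted value is no measured fold.

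Of 20 granulocyte targets, 18 were tested, and Mpo and Ctsg, which encode enzymes of early neutrophil granules, were too low. With DSS in Tmem173fl/fl mice 15 rose and 1 fell (median 4.83, or 4.53 with Elane, which had no untreated count, at its bound). Mmp8, a collagenase of neutrophil granules, had 2205 reads with DSS against 3, a ratio of 595 (95% exact interval 203 to 2888). S100a9 rose by 8.40 (adjusted p = 5.1e-06) and Ngp, a gene of secondary granules, by 7.58 (2.4e-05). Cd177 fell by 1.47 (adjusted p = 0.000565). In Tmem173iΔmye mice 8 rose and 0 were called lower (13 at an unadjusted p under 0.05, 0 lower by DESeq2), among them S100a8 (4.96, adjusted p = 0.00643) and Ltf, which encodes lactoferrin (4.42, 0.00212). Without any one untreated library 2 of the 18 were called, and without the Xist-pattern libraries 12 were.

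Under DSS, 6 of the 18 granulocyte targets were lower in Tmem173iΔmye mice and none was higher (11 at an unadjusted p under 0.05, 0 higher by DESeq2), with a median of -1.41, or -1.29 with Elane at its bound. Ngp was at 2.03 CPM against 62.9 (log2 -4.96 ± 0.93, adjusted p = 0.0317), Mmp8 at 3.77 against 41.5 (-3.47 ± 0.69, 0.0376) and S100a9 at 18.1 against 140 (-2.97 ± 0.56, 0.0327). Lyz2, whose promoter drives the Cre, was the most abundant gene not called (-0.54, adjusted p = 0.266). Without DSS Lyz2 averaged 193 CPM in Tmem173fl/fl mice and 95.2 CPM in Tmem173iΔmye mice (log2 -1.01 ± 0.23 SE), and was not called. The count of 6 fell to 0 without any one Tmem173fl/fl + DSS library and to 2 without library 2 of Tmem173iΔmye + DSS, and limma called 0 and 1 at pseudocounts of 0.1 and 1. It rose to 8 without library 5 of Tmem173iΔmye + DSS, the only Xist-pattern library in this comparison. In the interaction none of the 18 was called, with 8 at an unadjusted p under 0.05. DESeq2 called 2 lower, edgeR without the filter 4, and limma 8 at a pseudocount of 1. The count was 3 without library 3 of untreated Tmem173fl/fl mice or library 1 of Tmem173iΔmye + DSS, 1 without library 5 of that group and 4 without the Xist-pattern libraries.

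Metabolic targets showed no common direction: of 16 tested, 5 rose and 5 fell with DSS in Tmem173fl/fl mice (median -0.56), among them Fabp4 (2.38, adjusted p = 0.000411), a fatty acid carrier of fat cells, and Ttr (-2.56, 0.000854), which encodes transthyretin. In Tmem173iΔmye mice 1 rose, Cyp27a1 (1.11, 0.0264), and 1 fell, and neither count held without any one untreated library. Both counts were also 0 without library 1 of the colitic group. Without library 5 of that group 3 fell, and without the Xist-pattern libraries none rose. In the interaction Slc2a4, a glucose transporter gene, was the 1 called (-1.24, 0.0284). No gene of the list was called lower without the Xist-pattern libraries or without library 1 or 2 of untreated Tmem173fl/fl mice, library 3 of untreated Tmem173iΔmye mice or library 1 or 2 of Tmem173fl/fl + DSS, and 2 were without library 1 of Tmem173iΔmye + DSS. None of the 16 was called between genotypes under DSS, with 7 at an unadjusted p under 0.05 and 2 called by DESeq2. Without colitis no gene of the 5 lists was called between genotypes by edgeR. At an unadjusted p under 0.05 there were 3 acute-phase, 1 granulocyte and 4 metabolic targets, and DESeq2 called 1 granulocyte target. Without the filter edgeR called 1 acute-phase and 2 metabolic targets higher and 1 granulocyte target lower.

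Markers of several cell types moved with Cebpb and Cebpd, and in whole tissue a change in the number of cells and a change in the RNA of each cell cannot be told apart. The summed level of 14 neutrophil markers was 130 to 166 FPKM in untreated Tmem173fl/fl mice, 109 to 189 in untreated Tmem173iΔmye mice, 628 to 1008 in Tmem173fl/fl + DSS and 291 to 360 in Tmem173iΔmye + DSS. With DSS in Tmem173fl/fl mice 13 of the 14 were called higher and 1 lower, where 14.9% and 7.61% of all genes tested were. The 1 called lower was Cd177 (log2 -1.47, edgeR adjusted p = 0.000565). It averaged 46.8 FPKM over the libraries compared and is part of each sum. Under DSS 9 of the 14 were called lower in Tmem173iΔmye mice, against 1.99% of all genes tested. In the interaction 0 of the 14 were called, where 0.934% of all genes tested were called higher and 1.61% lower. With a library left out, the calls over all genes between genotypes under DSS went from 27 to 1593. The neutrophil marker counts were not recomputed in those fits. Mmp8 was the only one of the 14 at 0 in a whole group, the untreated Tmem173iΔmye mice. Ly6g, S100a8, S100a9, Cxcr2, Csf3r, Mmp8, Camp, Ngp, Ltf and Cd177 are also in the list of granulocyte targets. The results of the neutrophil and granulocyte lists are therefore not independent.

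The other lists that moved with the members were not of myeloid cells alone. The sum of 16 monocyte and macrophage markers was 272 to 403, 231 to 333, 786 to 1105 and 490 to 667 FPKM in the same order of groups, with 3 of 16 called lower between genotypes under DSS. Lyz2, whose promoter drives the Cre, is one of these 16 and averaged 282 FPKM over the colitic libraries. Fibroblast markers, 9 genes, summed to 172 to 204, 179 to 214, 1098 to 1355 and 332 to 472 FPKM, with 6 of 9 called lower. Endothelial markers, 8 genes, summed to 34.7 to 45.2, 39.5 to 41.1, 159 to 230 and 52.1 to 113 FPKM, with 3 of 8 called lower. Between genotypes under DSS 1.99% of all genes tested were called lower. The counts of called markers in these lists were also not recomputed with a library left out. Neutrophil precursor markers, 6 genes, summed to 1.07 to 2.89, 2.22 to 3.88, 48.6 to 62.3 and 25.7 to 33.0 FPKM. Only 3 of these 6 passed the filter. Of the 3, 2 were called higher with DSS in Tmem173fl/fl mice, where 14.9% of all genes tested were. Between genotypes under DSS 0 were called. In untreated Tmem173fl/fl mice 3 of the 6 were at 0 in each library, and in Tmem173iΔmye + DSS 2 were. Mpo, Elane, Prtn3, Ctsg and Chil3 are also in the granulocyte list. Epithelial markers went the other way, 12 genes with sums of 6979 to 8668, 7467 to 9124, 2817 to 4937 and 5779 to 7130 FPKM, as Cebpg did. So did goblet cell markers, 8 genes with sums of 5375 to 8013, 6087 to 9445, 1991 to 3814 and 5630 to 6484 FPKM. For each of these lists the order of the groups under DSS was that of Cebpb and Cebpd or its reverse, and their part in the results on the members was not tested.

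**Figure D5:**
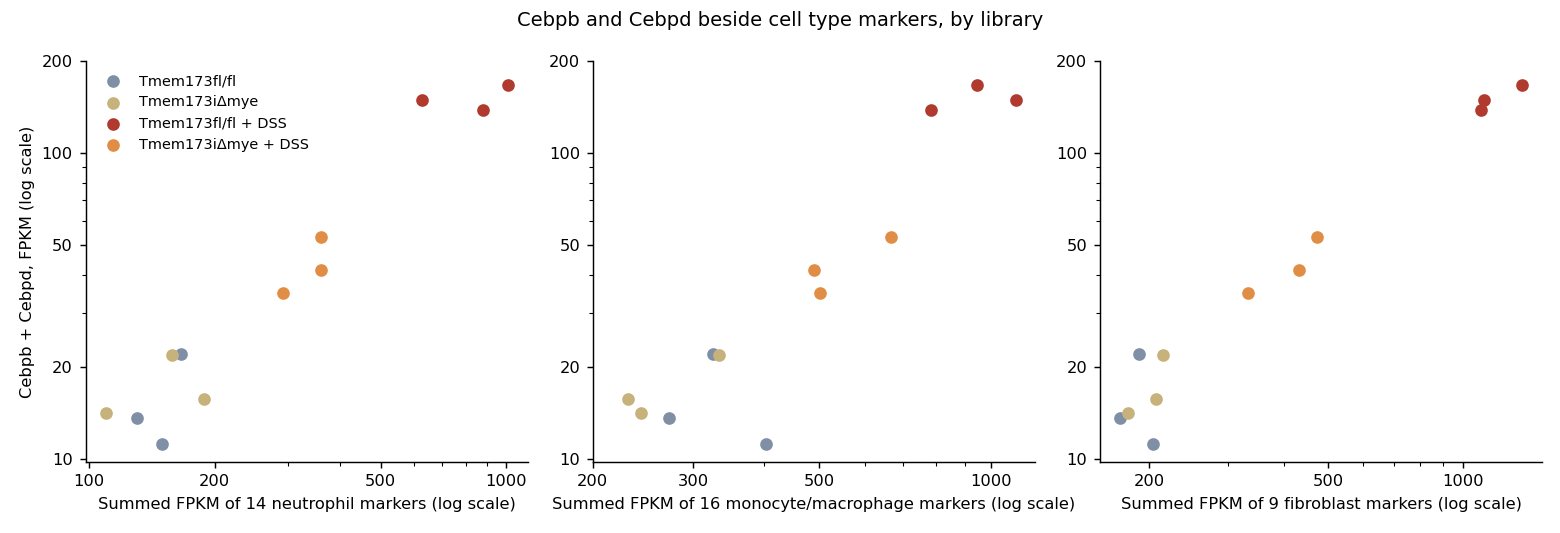
Summed FPKM of Cebpb and Cebpd (vertical axis, log scale) against the summed FPKM of neutrophil, monocyte and macrophage, and fibroblast markers (horizontal axes, log scale), one point per library. In each panel the Tmem173fl/fl + DSS libraries lie at the upper right, the Tmem173iΔmye + DSS libraries in the middle and the untreated libraries at the lower left.

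Acinar markers of the pancreas, an organ next to the colon, summed from 43.4 to 7668 FPKM over 8 genes, with the highest sums in library 1 of Tmem173iΔmye + DSS (7668) and libraries 1 and 2 of Tmem173fl/fl + DSS (7040 and 3486). These libraries 1 also had the highest Cebpb of their groups. Without library 1 of Tmem173fl/fl + DSS the log2 change of Cebpb with DSS was 3.29 (edgeR adjusted p = 2.3e-05). Without library 1 of Tmem173iΔmye + DSS its change in Tmem173iΔmye mice was 0.94 (adjusted p = 0.136). Between genotypes under DSS, Cebpb was not called without library 1 of Tmem173fl/fl + DSS (-1.72, adjusted p = 0.0629). It was called without library 1 of Tmem173iΔmye + DSS (-2.06, adjusted p = 0.0125). Erythroid markers, 8 genes, followed the order of Cebpb and Cebpd under DSS: they summed to 5.33 to 8.70 FPKM in untreated Tmem173fl/fl mice, 6.43 to 74.5 in untreated Tmem173iΔmye mice, 192 to 408 in Tmem173fl/fl + DSS and 29.7 to 36.4 in Tmem173iΔmye + DSS. Adipocyte markers, cells in which Cebpa is high, summed to 5.33 to 94.1, 64.9 to 196, 47.1 to 82.4 and 42.2 to 126 FPKM. Cebpa was highest in library 1 of untreated Tmem173fl/fl mice, which had the lowest adipocyte sum of its group, and in library 3 of untreated Tmem173iΔmye mice, which had the highest. Their part in the results was not tested.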

How the data were processed

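The authors sequenced poly(A) RNA of colon (TRIzol and lithium chloride extraction, NEBNext Ultra libraries). The submitters' processing notes name CASAVA 1.8, fastp, HISAT2 2.0.5, featureCounts 1.5.0-p3 and DESeq2 1.20.0. The authors deposited whole-number counts per gene and FPKM on GRCm38. Deposited columns of fold changes, p-values and group means were not used. The C/EBP members and gene lists were chosen with earlier results of these data known.

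Counts were tested in edgeR 4.0.16 (R 4.3.3, quasi-likelihood, TMM scaling) on 24102 genes with at least 0.1 FPKM in at least 3 of 12 libraries. Each pairwise fit held the 6 libraries of its groups, and the interaction held all 12. A call required a Benjamini-Hochberg adjusted p below 0.05 and a change of 1 or more in log2. The interaction is the DSS effect in Tmem173iΔmye minus that in Tmem173fl/fl mice. Shares and ratios were tested with exact permutation tests (scipy 1.17.1), where 3 against 3 cannot go below 0.1. Counts of Cebpe and of other genes at 3 counts or fewer were compared by exact binomial intervals, which cover counting error only.

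Groups and replicate numbers came from sample titles. Genes named from a list were, in each comparison, the up to 3 called genes with the largest change in each direction at a mean of at least 1 FPKM, and the most abundant gene not called. Genes most like a member were the 3 with the highest r. Alternatives were DESeq2 1.42.0, limma 3.58.1 on log2(FPKM + 0.1) and log2(FPKM + 1), other scalings and filters, a replicate block and leaving out each library. The scripts were tested on simulated data. Total counts of 13823237 to 18718915 left at least 134 reads in each library for every member but Cebpe (0 to 17 reads).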

Additional observations from a re-analysis of the deposited data

Results flagged for a closer look

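The DSS effect on Cebpb differed between the genotypes by an interaction of -2.27 on the log2 scale (edgeR adjusted p = 0.00712). Cebpb was higher with DSS in 3 of 3 libraries of both genotypes, by 3.45 in Tmem173fl/fl mice and 1.10 in Tmem173iΔmye mice. The DSS effect on Cebpd differed by -1.53 (adjusted p = 0.0390), with rises of 3.15 and 1.55. Both tests of the difference were made over 12 libraries. Groups of 3 libraries are too small to test a single library as an outlier, and none was tested.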

How the results depend on the processing

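Over 25 member results, 491 alternative values were computed, of which 448 kept their direction and side of the threshold, 24 lost the call, 9 gained it and 10 changed sign. These values are not all separate fits. Calls by adjusted p alone reused the main fit, and calls by unadjusted p reused the DESeq2 fit. For DSS in Tmem173fl/fl mice and for genotype under DSS, leaving out the Xist-pattern libraries repeated a fit with 1 library left out. In 9 fits Cebpe gave no call, being filtered out or left without an adjusted p by DESeq2. For DSS in Tmem173iΔmye mice 1 member was called, against 2 with upper quartile scaling, no filter, DESeq2 (adjusted or unadjusted p), one fit of 12 libraries, the replicate block or without the Xist-pattern libraries, 0 with limma at either pseudocount, and 0 to 2 with a library left out. Leaving out the Xist-pattern libraries and rescaling to other transcript or gene lengths were chosen after the data were seen. The count between genotypes under DSS was 2 and went from 0 to 2 with a library left out. The count in the interaction was 2, with 1 to 2 with a library left out and 1 without the Xist-pattern libraries. As a share of summed counts rather than FPKM, Cebpb rose by 17.9 points (Tmem173fl/fl) and 5.66 points (Tmem173iΔmye) with DSS and differed by -10.7 points under DSS. Sign changes, all of values that were not called, were those of Cebpa for DSS in Tmem173iΔmye mice (-0.23 to 0.13 with a library left out, 0.012 without the Xist-pattern libraries), of Cebpa (-0.065 to 0.35, and -0.12), Cebpd (-0.34 to 0.20) and Cebpe (-2.75 to 1.84, fitted to 1 and 2 reads and no measure of a fold) between untreated genotypes, and of Cebpe in the interaction (-3.43 to 1.25). Scaling by library totals moved the median log2 change of all genes with DSS in Tmem173fl/fl mice from 0.03 to 0.16 and the interaction's from 0.04 to -0.13, and changed no call of a member. Under library totals the calls over all genes were 161 higher and 679 lower between genotypes under DSS (198 and 480 with TMM) and 171 and 630 in the interaction (225 and 389). The number of all genes called was 501 for DSS in Tmem173iΔmye mice (1013 without the filter, 1137 by DESeq2, 1369 with the replicate block, 981 in one fit of 12 libraries, 62 and 58 by limma with pseudocounts of 0.1 and 1), 678 between genotypes under DSS (1257 without the filter, 1619 by DESeq2, 1492 in one fit, 140 and 154 by limma) and 614 in the interaction (1228 and 1375). With a library left out these counts went from 51 (without library 2 of untreated Tmem173iΔmye mice) to 1469 (without library 5 of Tmem173iΔmye + DSS), from 27 (without library 1 of Tmem173fl/fl + DSS) to 1593 and from 267 (without library 1 of untreated Tmem173fl/fl mice) to 1728, the last 2 maxima without library 1 of Tmem173iΔmye + DSS. The all-gene counts for the untreated genotypes were 0 in the main analysis, 68 without the filter and 94 with the replicate block.

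Same-numbered libraries did not deviate together (15 pairs, r from -0.19 to 0.24, median -0.04). For differently numbered libraries r ran from -0.47 to 0.34 (39 pairs, median 0.001). With groups of 3 libraries such values cannot exclude a pairing by number, and the titles name none. With the replicate block Cebpb was called for DSS in Tmem173iΔmye mice (log2 1.34, adjusted p = 0.00370), and no other call of a member changed. Of the gene lists, the replicate block called 1 acute-phase and 5 metabolic targets higher between untreated genotypes (none without it). For DSS in Tmem173iΔmye mice it called 12 granulocyte targets higher and 1 lower (8 and 0), 3 metabolic targets lower (1) and 2 partners higher (1), and for DSS in Tmem173fl/fl mice 4 partners lower (2). Of the partners between genotypes under DSS it called 1 higher and 0 lower (2 and 2), and of the acute-phase targets 2 higher (1). In the interaction it called 1 granulocyte target lower (0) and no metabolic target (1). Depth limits Cebpe, with at most 3 reads in 7 of 12 libraries.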
